A study of Mus musculus with 18 samples.

Results

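Fatty acid oxidation and the targets of PPAR-alpha in the mouse liver were represented by 35 chosen genes. They were found as probe sets of the Affymetrix Mouse430_2 array that are paired with exactly 1 of the 35 symbols, with the brightest probe set standing for each gene. Of the 35 genes, 34 had such a probe set, among 18193 genes on the array, and all 34 were among the 13645 genes bright enough to be tested. Cyp4a10 had no probe set paired only with its symbol and has no value here. Liver RNA came from male C57BL/6J mice that were 5 weeks old on arrival and were then fed for 20 weeks, and each of 18 arrays held the RNA of 1 mouse. The quercetin group (6 arrays) ate a Western diet with 0.05% quercetin, a plant flavonol. The Western group (6 arrays) ate the same diet without it, made with 20% butter, 1% soy oil and 0.15% cholesterol, in which fat gave 39.9% and sucrose 34.0% of the energy. The control group (6 arrays) ate AIN93G, a purified rodent diet. The mice lived 3 to a cage, and which mice shared a cage is not given.

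Fatty acids are burnt in mitochondria, which import long chains as carnitine esters and shorten them in repeated cycles of dehydrogenation, hydration, oxidation and thiolysis. Peroxisomes run a parallel pathway for very long, branched and dicarboxylic acids, and pass the shortened products on. In hepatocytes the nuclear receptor PPAR-alpha, activated by fatty acids, raises the transcription of many of these enzymes during fasting, when the liver also makes ketone bodies.

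Levels are given as log2(signal + 16) after quantile normalization, so a fold is a ratio of signal + 16. A gene was called changed at an adjusted p under 0.05 in limma with Benjamini-Hochberg adjustment over all 13645 genes. The libraries of controls 4 and 5 could hardly be told apart: the SD of the log2 ratio between these arrays was 0.0466 across 2673 bright probe sets, against 0.158 in the next closest of 153 pairs. Their mean entered as 1 control sample, which gives n = 5 for the control diet. Trimmed mean signals of the arrays ran from 82.8 to 96.0 in the quercetin group, from 80.7 to 102.5 in the Western group and from 67.1 to 81.3 in the control group. Of the 10 hepatocyte markers listed, 8 were measured and 0 were called between Western and control livers. The summed signal of these 8 was 63846 to 65000 in Western livers, against 65824 to 67687 in control livers, with no overlap. The number of arrays limits the precision: the 95% interval of a log2 difference reached 0.244 to either side at the median gene between Western and control livers.

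The Western diet was first compared with the control diet. Ehhadh, Acaa1b, Pdk4 and Vnn1 rose and Hacl1 and Cyp4a14 fell, so 6 of the 34 members were called, while 8.65% of all genes tested were. By direction, 4 members were higher against 5.49% of all genes, and 2 were lower against 3.16%. An unadjusted limma p under 0.05 was reached by 11 members, against 23.3% of all genes. Of the 6, 3 belong to peroxisomes and the other 3 are PPAR-alpha targets outside the mitochondrial and peroxisomal oxidation cycles. None of the 18 mitochondrial genes passed in the main fit, with log2 differences from -0.16 for Etfb to 0.30 for Cpt1a. The median log2 difference was 0.03 over the mitochondrial genes, 0.06 over the 12 peroxisomal genes, 0.05 over all 34 members and -0.01 over all genes tested. Whether the classes differed was not tested.

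**Figure D1:**
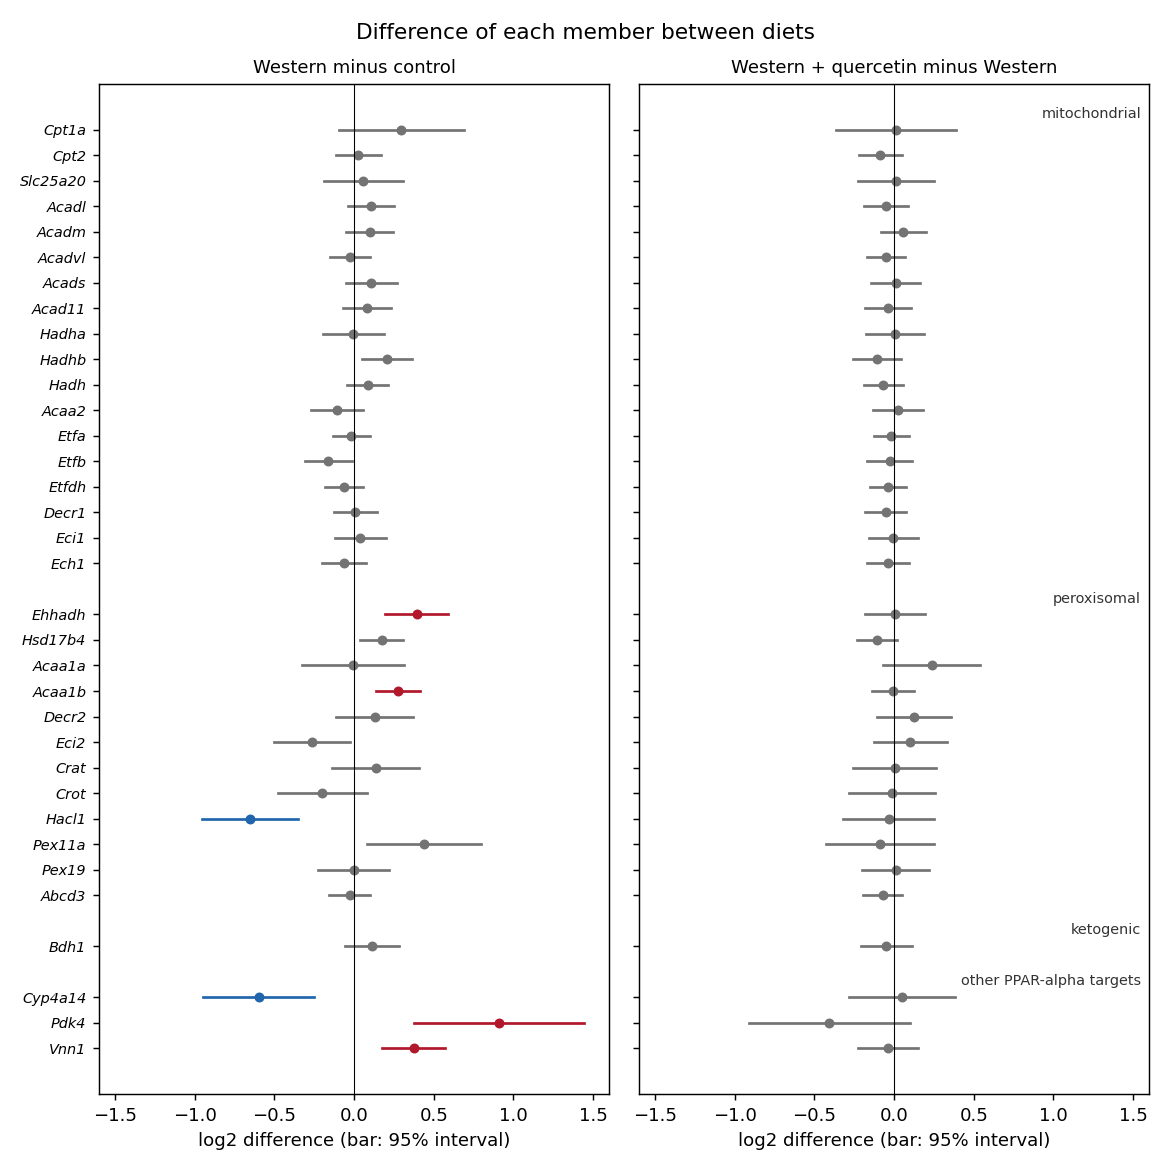
Log2 difference of each of the 34 members with its 95% interval, grouped by class, for Western minus control (left) and Western with quercetin minus Western (right); called members are red (higher) or blue (lower) and the others grey. The 18 mitochondrial genes lie between -0.16 and 0.30 on the left, and 0 members are coloured on the right.

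The split into higher and lower members depended on the scaling of the arrays. On the values as deposited, 11 members were higher and 1 was lower, but the median of all genes there stood at 0.22, and 3641 genes were called higher and 84 lower. With array medians centred, that median was 0.07, with 1108 genes called higher and 176 lower. None of the 6 called members changed sign under either scaling.

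Markers of other cells moved with the same diet contrast. Of 16 macrophage markers 9 rose, led in p by Gpnmb, a glycoprotein of lipid-laden macrophages, by 2.49 on the log2 scale. In the same list 2 differences were negative, the lowest -0.83 for Marco, and 0 markers were called lower. The summed signal of the 16 was 7432 to 12706 in Western livers, against 4939 to 5960 in control livers. Of 10 stellate cell markers 6 rose, among them Col3a1, a fibrillar collagen chain, by 1.86. The summed signal of these 10 was 2938 to 4392 in Western livers, against 2058 to 2233 in control livers. Of 10 endothelial markers 1 rose, Lyve1, and the sums of that list overlapped (1994 to 2422 in Western livers, 1878 to 2150 in control livers). The adipocyte markers Adipoq and Lep were too dim to be tested. In RNA of whole liver, fewer cells of a type and less RNA per cell cannot be told apart, and the part of these shifts in the members' differences was not tested.

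Of the measures of RNA quality, the actin ratio differed between Western and control livers, and the Gapdh ratio showed no such difference. The 3' over 5' ratio of the actin control probe sets had a log2 value of 0.54 ± 0.11 in Western livers (SD, n = 6) and 0.69 ± 0.06 in control livers (SD, n = 5; two-sided exact permutation test, p = 0.039). The Gapdh ratio differed by -0.01 (exact permutation p = 0.511). When the actin ratio entered the fit, 0 of the 34 members and 223 of all genes were called, and all 6 members named above kept their sign. Their log2 differences in that fit were 0.47 for Ehhadh, 0.31 for Acaa1b, -0.58 for Hacl1, -0.74 for Cyp4a14, 0.74 for Pdk4 and 0.37 for Vnn1. Those of Ehhadh, Acaa1b and Cyp4a14 were larger than without the ratio, those of Hacl1, Pdk4 and Vnn1 smaller, and the adjusted p ran from 0.0518 to 0.253 (limma).

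In the peroxisomal cycle, acyl-CoA oxidases act first, the multifunctional enzymes hydrate and dehydrogenate their products, and the thiolases cleave them. Ehhadh, the L-bifunctional enzyme of that cycle and a classical PPAR-alpha target, was read by 1 probe set. Its log2 level was 11.22 at the lowest, 11.37 at the median and 11.42 at the highest in Western livers, against 10.99, 11.22, 11.00, 10.97 and 10.64 in control livers. The lowest Western value lay just below the highest control value, and the remaining control samples were lower than every Western sample. Ehhadh averaged 11.36 ± 0.07 in Western livers (SD, n = 6) and 10.96 ± 0.21 in control livers (SD, n = 5). It was 1.31-fold higher (log2 difference 0.39 ± 0.09, SE; limma adjusted p = 0.0143).

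Acaa1b, a peroxisomal 3-ketoacyl-CoA thiolase that performs the last step of the cycle, was read by 1 probe set. Its log2 level was 13.06, 13.14 and 13.28 in Western livers (lowest, median, highest), against 12.86, 12.94, 12.88, 12.92 and 12.80 in control livers. The groups did not overlap, and neither did they for 5 members in all, Acaa1b, Hacl1, Vnn1, Hadhb and Hsd17b4, while 6.9% of all genes tested had no overlap. Acaa1b was 1.21-fold higher (log2 difference 0.27 ± 0.06, SE; limma adjusted p = 0.0131), but with array medians centred the difference was 0.17 and the adjusted p 0.206. Its near-identical relative Acaa1a averaged 7.52 ± 0.20 in Western livers (SD, n = 6) and 7.53 ± 0.36 in control livers (SD, n = 5). Probes of such paralogs may read each other's transcripts, and both Acaa1a probe sets carry the _x_at suffix that marks probes shared with other transcripts.

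Hacl1, the 2-hydroxyacyl-CoA lyase that cleaves phytanic acid derivatives in peroxisomal alpha-oxidation, was the peroxisomal member that fell. Its 1 probe set gave log2 levels of 9.53, 10.15 and 10.33 in Western livers (lowest, median, highest), against 10.77, 10.90, 10.96, 10.37 and 10.62 in control livers. Every Western sample was below every control sample. Hacl1 averaged 10.07 ± 0.29 in Western livers (SD, n = 6) and 10.73 ± 0.24 in control livers (SD, n = 5). It was 1.57-fold lower (log2 difference -0.65 ± 0.14, SE; limma adjusted p = 0.00876).

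Of the 9 peroxisomal genes that did not pass, Hsd17b4, the D-bifunctional enzyme that acts beside Ehhadh, had no overlap between groups. Its log2 level was 11.46, 11.49 and 11.57 in Western livers (lowest, median, highest), against 11.27, 11.39, 11.32, 11.25 and 11.37 in control livers. The difference of 0.17 missed the threshold (limma adjusted p = 0.1003). A second Hsd17b4 probe set, of the _x_at type, differed by 0.37, and the mean of both probe sets passed (log2 difference 0.27, limma adjusted p = 0.00884). That mean also passed between the quercetin and control groups (log2 difference 0.24, limma adjusted p = 0.0220). In that comparison the probe sets disagreed in size, at 0.07 for the brighter and 0.42 for the _x_at one. Without probe sets of the _x_at and _s_at types, Hsd17b4 was called in neither comparison. Pex11a, a membrane protein of peroxisome division, differed by 0.44 (adjusted p = 0.121), and its second probe set by 0.53. Without the averaged control 4 and 5, Pex11a passed at a difference of 0.57 (adjusted p = 0.0413). It also passed with sample numbers 1 to 3 and 4 to 6 as a block (difference 0.39; adjusted p = 0.0159). Eci2, an enoyl-CoA isomerase for unsaturated chains, differed by -0.27 (adjusted p = 0.166), and Crot, which loads medium chains onto carnitine for export from the peroxisome, by -0.20 (adjusted p = 0.412). Decr2, a dienoyl-CoA reductase, Crat, a carnitine acetyltransferase shared with mitochondria, Pex19, a carrier of peroxisomal membrane proteins, Abcd3, an importer of acyl-CoA, and Acaa1a lay between -0.03 and 0.13.

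Promoters are shown for called members, to set the sequence before the start of each gene beside its change. Promoters from RefSeq (build GRCm38.p6) were searched for 27 of the 34 members, and those of the other members were not examined. The called members among these 27 are the 4 below. All 4 are given as the 250 bases before the start, on the minus strand, read 5' to 3'. They are chr6:5496279-5496528 for Pdk4, chr14:31640966-31641215 for Hacl1, chr16:21787835-21788084 for Ehhadh and chr9:119157094-119157343 for Acaa1b. Capitals mark the CCAAT box, searched as CCAAT on both strands, so that ATTGG is its reverse. This motif was chosen after the sequences had been seen.
Pdk4: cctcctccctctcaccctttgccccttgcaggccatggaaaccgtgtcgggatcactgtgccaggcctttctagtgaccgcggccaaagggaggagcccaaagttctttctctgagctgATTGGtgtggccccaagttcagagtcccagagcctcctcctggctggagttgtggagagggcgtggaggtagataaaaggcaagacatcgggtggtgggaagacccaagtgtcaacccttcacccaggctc
Hacl1: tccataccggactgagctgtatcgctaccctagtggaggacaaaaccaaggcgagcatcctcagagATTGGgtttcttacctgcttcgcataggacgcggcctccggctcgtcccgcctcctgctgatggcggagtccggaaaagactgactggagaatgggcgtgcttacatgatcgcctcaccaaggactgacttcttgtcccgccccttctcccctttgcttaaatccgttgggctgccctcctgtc
Ehhadh: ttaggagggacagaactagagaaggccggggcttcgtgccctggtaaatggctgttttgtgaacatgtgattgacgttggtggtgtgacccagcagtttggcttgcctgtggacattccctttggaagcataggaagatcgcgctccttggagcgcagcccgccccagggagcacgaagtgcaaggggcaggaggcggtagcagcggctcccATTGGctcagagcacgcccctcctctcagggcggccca
Acaa1b: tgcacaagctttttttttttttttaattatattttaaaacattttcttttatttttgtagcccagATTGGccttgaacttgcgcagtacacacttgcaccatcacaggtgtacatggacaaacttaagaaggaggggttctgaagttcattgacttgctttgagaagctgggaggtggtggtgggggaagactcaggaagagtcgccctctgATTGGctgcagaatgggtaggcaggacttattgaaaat
All 4 windows hold the box, at position -131 from the start in Pdk4, -184 in Hacl1 and -38 in Ehhadh, and at 2 positions in Acaa1b. It was found in 13 of the 27 member promoters and in 33.8% of 32851 promoters of the same length. The nuclear receptor core motif AGGTCA, searched on both strands, was in 14.0% of those promoters and in those of Acadm, Acadvl and Cpt1a among the members. The direct repeat of that motif with 1 base between, the form PPAR-alpha binds with RXR, was in 0.0335% of promoters. It was in 0 promoters of the 27 members searched. No match says only that these letters are not in this window.

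The remaining called genes are PPAR-alpha targets outside the oxidation cycles, and all 3 that were measured passed. Pdk4, a kinase that shuts pyruvate out of mitochondrial oxidation, was read by 1 probe set. Its log2 level was 6.86, 7.51 and 7.73 in Western livers (lowest, median, highest), against 7.02, 6.84, 6.54, 6.16 and 5.66 in control livers. The groups overlapped, with the highest control value above the lowest Western ones. Pdk4 averaged 7.35 ± 0.39 in Western livers (SD, n = 6) and 6.44 ± 0.55 in control livers (SD, n = 5), and was 1.88-fold higher (log2 difference 0.91 ± 0.25, SE; limma adjusted p = 0.0318). The call was lost without control 3, the averaged control 4 and 5, control 6, or Western 1, 3, 4 or 5, with adjusted p between 0.0537 and 0.0917 and log2 differences between 0.71 and 0.93.

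Vnn1, a pantetheinase on the hepatocyte surface, was read by 2 probe sets. The log2 level of the brighter was 10.88, 10.96 and 11.05 in Western livers (lowest, median, highest), against 10.70, 10.66, 10.35, 10.64 and 10.58 in control livers. The groups did not overlap. Vnn1 averaged 10.96 ± 0.08 in Western livers (SD, n = 6) and 10.59 ± 0.14 in control livers (SD, n = 5), and was 1.30-fold higher (log2 difference 0.38 ± 0.09, SE; limma adjusted p = 0.0189). The second probe set differed by 0.42. Without control 3 the difference was 0.32 and the adjusted p 0.0560.

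Cyp4a14, a microsomal enzyme that hydroxylates fatty acids at the omega end, moved the other way. Its 1 probe set gave log2 levels of 10.15, 10.78 and 11.01 in Western livers (lowest, median, highest), against 11.37, 11.71, 11.17, 11.56 and 10.82 in control livers. Only the lowest control value fell within the Western range. Cyp4a14 averaged 10.73 ± 0.32 in Western livers (SD, n = 6) and 11.33 ± 0.35 in control livers (SD, n = 5), and was 1.51-fold lower (log2 difference -0.60 ± 0.17, SE; limma adjusted p = 0.0314). The call was lost without control 1, control 2, the averaged control 4 and 5, or Western 3, 4 or 5, with adjusted p between 0.0555 and 0.0875 and log2 differences from -0.59 to -0.48. Cyp4a genes are close paralogs, so the probe set may read transcripts of relatives too.

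**Figure D2:**
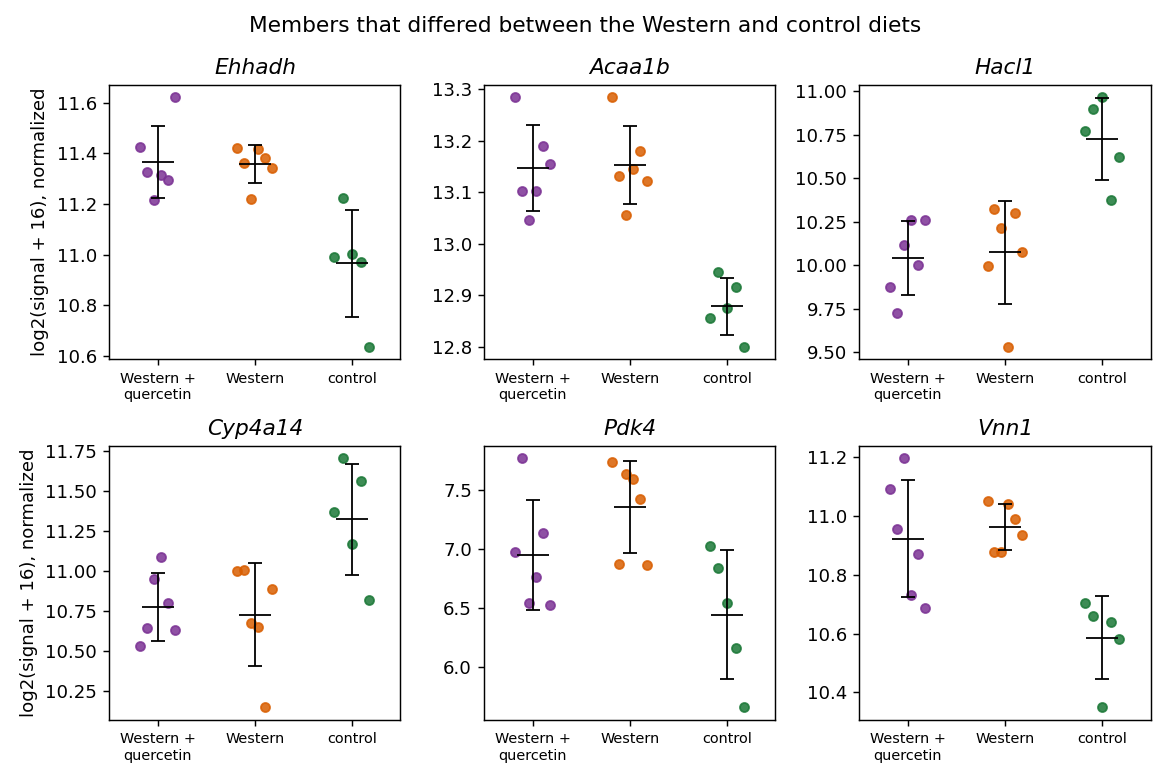
Log2 level of the 6 called members in each liver sample (points), by diet, with the mean and SD of each group (bars); control arrays 4 and 5 are averaged to 1 point. Western samples without quercetin do not overlap control samples for Acaa1b, Hacl1 and Vnn1, and Western samples with and without quercetin overlap for all 6 genes.

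The mitochondrial genes showed smaller differences. Hadhb, the thiolase subunit of the trifunctional protein, had log2 levels of 11.07, 11.13 and 11.23 in Western livers (lowest, median, highest), against 10.76, 10.95, 10.89, 11.03 and 10.99 in control livers. The groups did not overlap, but the difference of 0.21 missed the threshold (limma adjusted p = 0.0929). A second Hadhb probe set, of the _x_at type, differed by 0.26, and a much dimmer one by -0.04. Hadha, the other subunit of the same complex, differed by -0.00 (95% interval -0.19 to 0.19). Cpt1a, the rate-limiting carnitine palmitoyltransferase of mitochondrial import, had log2 levels of 10.56, 10.87 and 11.23 in Western livers (lowest, median, highest), against 10.07, 10.41, 10.22, 11.21 and 10.99 in control livers. These groups overlapped widely, and the difference of 0.30 had a 95% interval from -0.10 to 0.69 (limma adjusted p = 0.373). The dimmer Cpt1a probe sets, of the _x_at type, differed by 0.44 and 0.27.

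The other genes of import were Cpt2, which reforms acyl-CoA inside the mitochondrion, at 0.03, and Slc25a20, the carnitine-acylcarnitine carrier, at 0.06. The acyl-CoA dehydrogenases Acadl, Acadm, Acadvl and Acads, for long, medium, very long and short chains, and Acad11 lay between -0.02 and 0.11. All 3 genes of the electron transfer that follows these dehydrogenases had negative differences, -0.02 for Etfa, -0.16 for Etfb (limma adjusted p = 0.168) and -0.06 for Etfdh. Hadh, the short-chain hydroxyacyl-CoA dehydrogenase, differed by 0.08, and Acaa2, a mitochondrial thiolase, by -0.11. Decr1, Eci1 and Ech1, which reshape the double bonds of unsaturated chains, lay between -0.06 and 0.04.

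Ketogenesis was represented by 1 gene, Bdh1, the dehydrogenase that turns acetoacetate into 3-hydroxybutyrate. Its log2 level was 10.99, 11.15 and 11.22 in Western livers (lowest, median, highest), against 10.78, 11.10, 10.91, 11.27 and 11.02 in control livers. All Western values lay within the control range, and the difference of 0.11 did not pass (limma adjusted p = 0.433). From the further ketone genes listed, Acat1, a mitochondrial acetoacetyl-CoA thiolase, differed by 0.01 and Oxct1, an enzyme of ketone use, by 0.57, and neither passed (adjusted p = 0.929 and 0.0639).

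**Figure D3:**
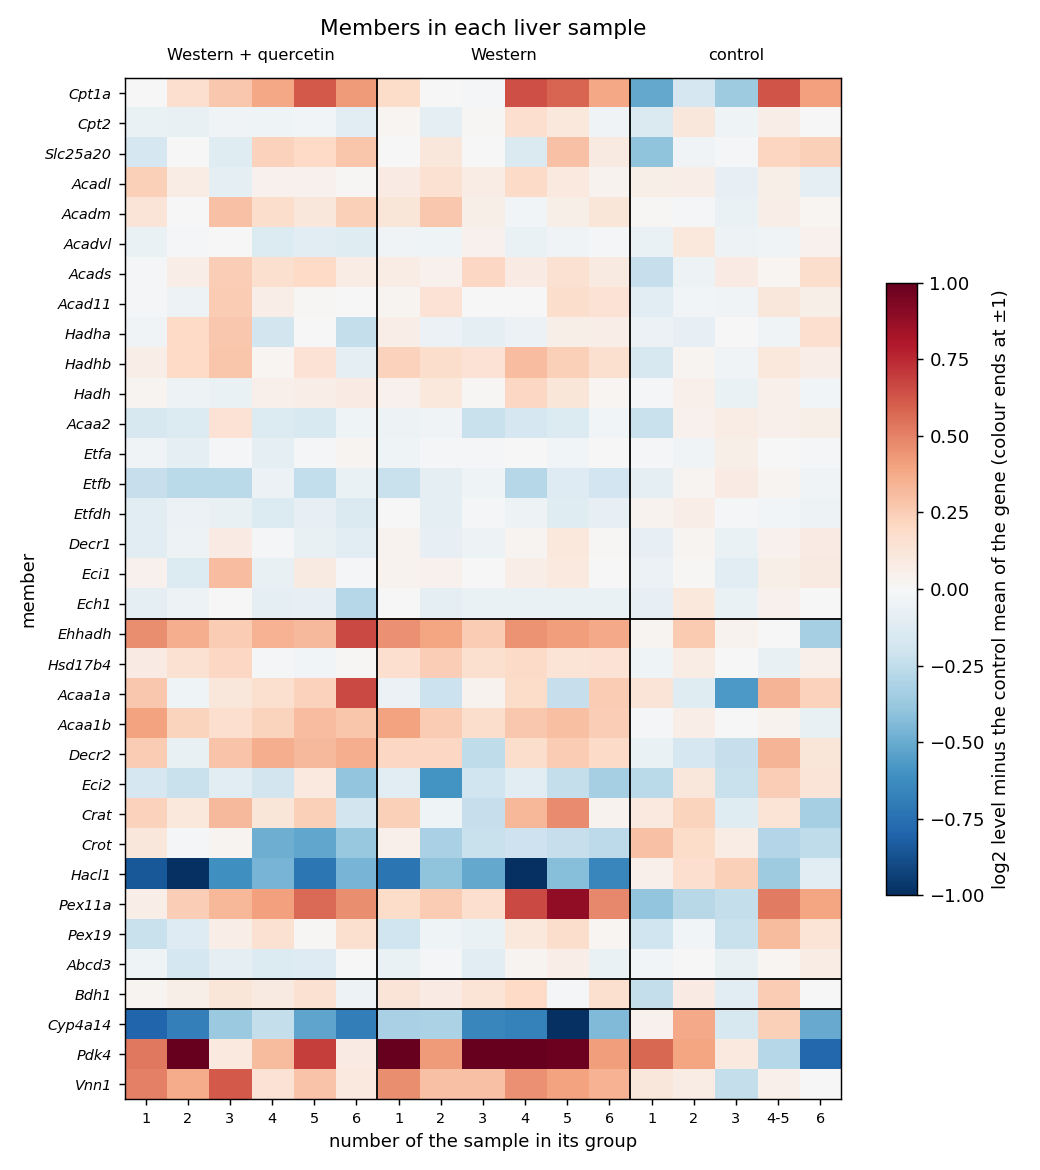
Log2 level of each of the 34 members in each of the 17 liver samples minus the control mean of that gene, with the colour scale ending at ±1 and lines between classes (mitochondrial, peroxisomal, ketogenic, other PPAR-alpha targets). Hacl1 and Cyp4a14 are blue and Ehhadh, Acaa1b and Vnn1 red in all 12 Western samples, with and without quercetin.

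Adding quercetin to the Western diet was the second comparison. 0 of the 34 members were called (0% of all genes tested), 0 had an unadjusted limma p under 0.05 against 2.87% of all genes, and 0 had groups without overlap against 0.132%. The median log2 difference was -0.02, with 13 positive and 21 negative. The differences ran from -0.41 for Pdk4 to 0.24 for Acaa1a, and the 95% intervals over all members reached from -0.91 to 0.54.

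Pdk4 had log2 levels of 6.52, 6.86 and 7.77 in the quercetin group (lowest, median, highest), against 6.86, 7.51 and 7.73 in the Western group. The groups overlapped over the whole Western range, and the interval of the difference was -0.91 to 0.10. For the other called members the differences between the quercetin and Western groups were 0.01 for Ehhadh (95% interval -0.18 to 0.20), -0.01 for Acaa1b (-0.14 to 0.12) and -0.03 for Hacl1 (-0.32 to 0.25). They were 0.05 for Cyp4a14 (-0.28 to 0.38) and -0.04 for Vnn1 (-0.23 to 0.15). These intervals leave room for changes of such sizes in either direction.

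The quercetin group was also set against the control group, a comparison that shares samples with both others. Ehhadh, Acaa1b and Vnn1 were called higher and Hacl1 lower, 4 of 34 members, while 5.41% of all genes tested were called (3.43% higher and 1.98% lower). An unadjusted limma p under 0.05 was reached by 8 members, against 19.9% of all genes. 3 members had no overlap, Acaa1b, Hacl1 and Etfdh, against 4.65% of all genes.

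Ehhadh had log2 levels of 11.22, 11.32 and 11.62 in the quercetin group (lowest, median, highest), with 1 control sample within that range (log2 difference from control 0.40; limma adjusted p = 0.0173). Acaa1b had 13.05, 13.13 and 13.28 (difference 0.27; adjusted p = 0.0206, but 0.0568 without control 6). With array medians centred, the difference of Acaa1b was 0.12 (adjusted p = 0.455) and that of Ehhadh 0.40 (adjusted p = 0.0557), and with only the compared groups in the fit the adjusted p was 0.0630 and 0.0635. Hacl1 had 9.73, 10.06 and 10.26 (difference -0.68; adjusted p = 0.00886). The 6 quercetin values of Acaa1b were thus all above the control values given before, and those of Hacl1 all below. Vnn1 had 10.69, 10.91 and 11.20 (difference 0.34; adjusted p = 0.0437), and it was called in 4 of the 17 fits that left out a sample, with adjusted p up to 0.116. It kept the call only without control 1 or Western 2 or without sample 4 or 6 of the quercetin group.

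Cyp4a14 had 10.53, 10.72 and 11.09 in the quercetin group and Pdk4 the values given above. Their differences from control were -0.55 (limma adjusted p = 0.0611) and 0.50 (adjusted p = 0.277), and neither passed. Cyp4a14 did pass without control 6, Western 5 or sample 4 of the quercetin group (adjusted p = 0.0255, 0.0352 and 0.0482). The actin ratio was 0.55 ± 0.08 in the quercetin group (SD, n = 6) and 0.69 ± 0.06 in the control group (SD, n = 5; exact permutation p = 0.0216). The macrophage marker sum was 6077 to 16143 in the quercetin group, against 4939 to 5960 in the control group. The stellate sum was 2621 to 5011 in the quercetin group, against 2058 to 2233 in the control group, and the hepatocyte sum 62777 to 65075 against 65824 to 67687. None of these 3 sums overlapped between the groups, and their part in the differences was not tested. When the actin ratio entered the fit, 0 members and 155 of all genes were called, with log2 differences of 0.47 for Ehhadh, 0.30 for Acaa1b, -0.61 for Hacl1 and 0.33 for Vnn1.

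Within a diet, members varied between mice to unequal degrees. The SD pooled over the diets had a median of 0.0866 over the 18 mitochondrial genes, from 0.0355 for Etfa to 0.352 for Cpt1a. It was 0.195 over the 12 peroxisomal genes, with Pex11a at 0.313, and 0.301 over the other targets, with Pdk4 at 0.472. The median mitochondrial member of a sample, relative to each gene's control mean, lay between -0.05 and 0.04 in the quercetin group, -0.01 and 0.10 in the Western group and -0.08 and 0.05 in the control group. For the peroxisomal genes it lay between -0.03 and 0.16, -0.09 and 0.18, and -0.10 and 0.09 in the same groups. Both classes overlapped between all diets by this measure.

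The wide spread of Cpt1a and Pex11a followed the sample numbers of the labels, which give no meaning to them. In each of the 3 diets, samples numbered 4 to 6 were all above those numbered 1 to 3 for both genes. They were the only such members of the 34, while 1.24% of all genes tested showed this, and 2.13% when either direction counts. Numbers 4 to 6 were higher for Cpt1a by 0.33 in the quercetin group, 0.48 in the Western group and 0.86 in the control group, and for Pex11a by 0.26, 0.48 and 0.76. The Western minus control difference of Cpt1a was 0.40 among numbers 1 to 3 and 0.02 among numbers 4 to 6, and that of Pex11a 0.50 and 0.22.

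**Figure D4:**
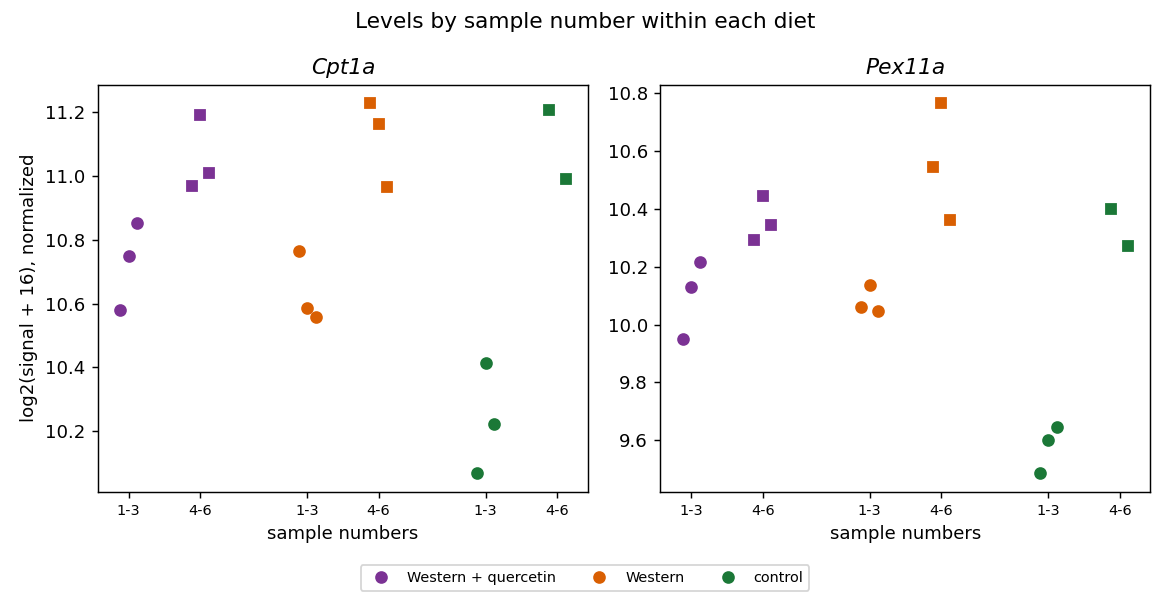
Log2 level of Cpt1a and Pex11a in each liver sample (points), split into samples numbered 1 to 3 (circles) and 4 to 6 (squares) within each diet; the averaged control arrays 4 and 5 are 1 square. In every diet the squares lie above the circles for both genes.

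The called members kept their direction in both sets of numbers. From numbers 1 to 3 and from numbers 4 to 6, Western minus control was 0.26 and 0.58 for Ehhadh, 0.27 and 0.29 for Acaa1b, and -0.70 and -0.53 for Hacl1. It was 0.61 and 1.38 for Pdk4, 0.37 and 0.38 for Vnn1, and -0.52 and -0.63 for Cyp4a14. The difference between the quercetin and Western groups changed sign between the sets for 5 of these 6, and was -0.32 and -0.49 for Pdk4. The 5 were Hacl1 (-0.27 and 0.20), Cyp4a14 (-0.18 and 0.28), Vnn1 (0.15 and -0.23), Ehhadh (-0.01 and 0.03) and Acaa1b (-0.013 and 0.0004). For Ehhadh and Acaa1b the values were thus small in both sets. Fits within a set, with 3 or fewer mice a group, called 0 and 1 of the 34 members between Western and control livers, and 88 and 296 of the 13645 genes tested.

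Whether targets of PPAR-alpha varied together between mice of the same diet was examined for Cyp4a14 with Pdk4, Vnn1, Ehhadh, Cpt1a and Acaa1b. Deviations from the diet means over 17 samples gave Pearson's r from -0.18 (Cpt1a) to 0.29 (Ehhadh) and Spearman's rho from -0.11 to 0.10. None of the 5 relations passed (permutation test within diets, adjusted p = 0.821 for every r and 0.950 for every rho). Without the 2 samples farthest from the median, r ran from -0.24 to 0.19. With deviations taken within diet and number set, it ran from -0.08 to 0.36. Within the quercetin group, r ran from -0.67 (Acaa1b) to 0.45 (Cpt1a). Within the Western group it ran from -0.59 (Cpt1a) to 0.12 (Acaa1b). The sign differed between these groups for Ehhadh, Cpt1a and Acaa1b, and was negative in both for Pdk4 and Vnn1. These values of r are descriptions over 6 samples each, and the 5 control samples are too few for one.

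Beyond the members, 75 other genes of fatty acid metabolism were listed, and 64 of the 65 measured were bright enough to test. Between Western and control livers 6 rose, 3 fell and 55 did not pass, with a median log2 difference of -0.01, while 5.49% of all genes tested were higher and 3.16% lower. In the comparison of the quercetin and Western groups 0 passed, and 4 were higher and 2 lower in the quercetin group than in the control group.

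Among regulators, 1 of 12 rose and 1 fell. Pparg, the receptor that drives fat storage, rose 2.06-fold to 7.23 ± 0.22 in Western livers (SD, n = 6), against 6.18 ± 0.24 in control livers (SD, n = 5; limma adjusted p = 0.000764). Ppargc1b, a coactivator of mitochondrial genes, fell by 0.47 on the log2 scale (adjusted p = 0.0290). Ppara itself averaged 10.35 ± 0.24 in Western livers (SD, n = 6) and 10.20 ± 0.54 in control livers (SD, n = 5), a difference that did not pass (adjusted p = 0.716).

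Of the 14 further peroxisomal genes 1 rose, Aldh3a2, a fatty aldehyde dehydrogenase, at 11.41 ± 0.12 in Western livers (SD, n = 6) and 10.67 ± 0.17 in control livers (SD, n = 5). It was 1.68-fold higher without overlap (limma adjusted p = 0.000303). Of 9 genes of fatty acid activation, Acsl4, an acyl-CoA synthetase that prefers polyunsaturated chains, rose by 0.64 (adjusted p = 0.0111) and Acsm3, a medium-chain synthetase, fell by 0.44 (adjusted p = 0.0240). Of 4 omega-hydroxylases Cyp4f14 fell by 0.51 (adjusted p = 0.0117). Of 11 further mitochondrial genes 0 passed in limma, and 4 had an unadjusted p under 0.05.

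Of 12 further targets 3 rose in Western livers. Plin2, a coat protein of lipid droplets, was higher by 0.34 (limma adjusted p = 0.0490), Mgll, a monoacylglycerol lipase, by 0.41 (adjusted p = 0.0245) and Tmem135, a membrane protein of peroxisomes and mitochondria, by 0.31 (adjusted p = 0.0243). Pparg, Aldh3a2, Plin2 and Pdk4 can also be made by cells other than hepatocytes, and the share of each cell type in their signal was not measured.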

How the data were processed

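Liver RNA was measured on 18 Affymetrix Mouse430_2 arrays. The authors deposited 1 linear intensity per probe set and array, from 0.0118 to 12323.2; how the authors derived or normalized them is not given in the sources used here. They were converted here to log2(value + 16) and quantile normalized over 45037 probe sets, after 64 control probe sets were left out. Of these, 34945 carried 1 gene symbol, 932 several and 9160 none. The brightest probe set stood for each gene, and genes under the 25th percentile of mean level were left out (4548 of 18193). limma 3.58.1 in R 4.3.3 fitted 1 mean per diet to all 17 samples (lmFit, contrasts, eBayes), with two-sided tests and Benjamini-Hochberg adjustment per comparison. Exact and permutation tests used scipy 1.17.1 in Python 3.11.15, with 100000 resamples for correlations, and figures matplotlib 3.10.9. The calling was tested on simulated data.

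The members, gene lists and tests were chosen with earlier results of these data known. All members are named; of the other lists, the called genes are named, at most 4 per list and comparison, besides Ppara and those given for overlap with a member's role (Acat1, Oxct1), which were chosen after their values were seen. AIN93G with quercetin was not analysed here. Alternatives covered scaling, pseudocount, dim filter, probe set choice, the samples in the fit, blocks of sample numbers, the actin ratio and leaving out each sample. Same-numbered samples of different diets did not all deviate together, though 5 of 6 correlations were over 0.1 in each comparison. They ran from -0.02 to 0.24 between Western and control and from -0.26 to 0.27 between quercetin and Western. Between quercetin and control they ran from 0.08 to 0.33. A sample correlated best with its own number in the other group for 3, 4 and 3 of the 6 numbers, in the same order. Whether the numbers mark pairs is not given. The main fit did not use them, and fits with the numbers as a block are among the alternatives.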

Additional observations from a re-analysis of the deposited data

Results flagged for a closer look

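Of 102 sets of 1 member in 1 diet, 5 held a sample that stood apart from the rest of its group by Dixon's test at the 95% level, and chance gives about 1 in 20. Decr2, the peroxisomal dienoyl-CoA reductase, did so in both Western groups: sample 2 of the quercetin group had a log2 level of 9.26 against 9.59 to 9.70 in the rest, and Western sample 3 had 9.08 against 9.51 to 9.59. Ech1 had 10.99 in sample 6 of the quercetin group, against 11.19 to 11.29 in the others. Crot had 11.51 in Western sample 1, where the others had 11.13 to 11.25. Acaa2 had 11.59 in control sample 1, where the others had 11.85 to 11.89. None of these 4 genes was called in a comparison of the report.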

How the results depend on the processing

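Each count was recomputed under 33 alternatives, of which 17 left out 1 sample. No called member changed sign, and members called neither in the report nor in the alternative were judged by size of shift alone. Between the Western and control groups 6 members were called in the report, against 12 on the values as deposited, 0 with the actin ratio as a covariate, 0 with numbers 1 to 3 only and 1 with numbers 4 to 6 only. Between the quercetin and control groups 4 were called, against 11 on the values as deposited, 1 with array medians centred, 1 with only the compared groups in the fit, 2 with numbers 1 to 3 only, and 0 with numbers 4 to 6 only or with the actin ratio. The sets of numbers have fewer samples, and the cause was not tested for the others. Leaving out 1 sample gave 4 to 6, 0 to 0 (quercetin against Western) and 3 to 5 calls. With the replicate numbers as a block, 7, 0 and 3 members were called, Pex11a being the addition (adjusted p = 0.0291). A block of numbers 1 to 3 against 4 to 6 gave 7, 0 and 4 calls, with 1524 of all genes called between Western and control. Of the 28 members not called between Western and control, 7 passed in some setting, and of the 34 between the quercetin and Western groups 0 did in limma. The 7 were Acadl, Acadm, Acads, Hadhb, Hsd17b4, Decr2 and Pex11a. Between Western and control, Ehhadh kept its call in 30 of 33 settings, Hacl1 in 30, Acaa1b and Vnn1 in 29, Pdk4 in 24 and Cyp4a14 in 21. Between the quercetin and control groups Hacl1 kept it in 31, Ehhadh in 28, Acaa1b in 27 and Vnn1 in 11. Cyp4a14 missed on the values as deposited (adjusted p = 0.0894) and with array medians centred (adjusted p = 0.0533). The added 16 shrinks the folds of dim genes, which among the called members bears on Pdk4, with a mean signal of 117.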
